A study of Mus musculus with 12 samples.

Results

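Chemokines are small secreted proteins that guide leukocytes through tissue, and the genes of 32 chemokine ligands were followed here in mouse proximal colon. They were taken by name from a fixed list with no filter on their level, and all 32 were found among the 38924 genes counted. That list was chosen with earlier results of these data known. Tissue labelled as proximal colonic mucosa came from 12 female C57BL/6 mice that were 6 weeks old. Of these, 6 were APC Min/+ mice, which carry a germline truncating mutation (Min) in 1 copy of the tumour suppressor gene Apc and later develop intestinal adenomas, and 6 were wild-type (WT) mice. RNA was sequenced once per mouse and no treatment was given. The comparison asks whether the Apc mutation changes the colon before adenomas form. The genotypes were kept in separate cages, so cage and genotype cannot be told apart. In bulk tissue, fewer cells of a type and less RNA per cell cannot be told apart either.

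Chemokines act on receptors coupled to G proteins, and a cell moves towards the source when it carries the matching receptor. Homeostatic members such as Cxcl12, Cxcl13, Ccl25 and Ccl28 are made without infection and place lymphocytes in tissues and follicles. Inflammatory members such as Cxcl1, Cxcl2, Cxcl10 and Ccl2 are switched on by bacterial products, cytokines or interferons, and in the colon they bring in neutrophils, monocytes and effector T cells.

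Total counts on genes lay between 50313805 and 197914821 per mouse, so that 3 counts amounted to 0.0152 to 0.0596 CPM (counts scaled to library size). Levels of 1 gene are given below as CPM, and levels of different genes are compared only as RPKM, which also divides by gene length. Mice are named as in the sample labels. The APC Min/+ mice M10_2 and M13_1 stood apart from the other 10. Their summed CPM of 6 genes typical of distal colon (Hoxa13, Hoxb13, Hoxd13, Hoxd12, Tgm3 and Insl5) was 2900 and 2690, against 2.90 to 8.58 in the others, although all 12 samples are labelled proximal colon. Cdx2, an intestinal transcription factor, was at 49.9 and 20.6 CPM in this pair and at 66.6 to 251 CPM elsewhere. The epithelial marker list, which holds Cdx2, summed to 9400 to 16200 CPM, but its members differed in the pair. Krt20 was lowest in M10_2 and M13_1 (589 and 534 CPM, against 985 to 2560 CPM elsewhere). Cdh1 was highest there (1490 and 1200 CPM, against 297 to 871 CPM elsewhere). Smooth muscle markers (Myh11, Actg2, Des, Cnn1 and Myocd) summed to 2740 to 4120 CPM, although the label names mucosa. Their median sum was 3900 CPM in APC Min/+ mice (2880 to 4120) and 3150 CPM in WT mice (2740 to 3850). Fibroblast markers had median sums of 2220 CPM (1880 to 2830) and 1680 CPM (1100 to 2190). The part of such differences in the members' levels was not tested. Because M10_2 and M13_1 stood apart, results are given with and without this pair. The part of the sampled segment in these results was not tested.

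The members' promoter sequences differed in the letter patterns searched for. The 250 bases before the annotated start (RefSeq, build GRCm38.p6) were at hand for 22 of the 32 members. They were searched on both strands for the NF-kappaB-type letters GGGNNTTTCC, a motif known from genes induced by bacterial products, and for the interferon-response-type letters GAAANNGAAA. The first occurs in 1.41% of 32851 mouse promoters of this length and was found for 5 of the 22 members (Ccl9, Ccl20, Cxcl1, Cxcl2 and Cxcl3). The second occurs in 2.98% of the promoters and was found for Cxcl10 and Cxcl14. No match of one overlapped a match of the other. A match is a description of the letters only. Other spellings of these motifs were not searched, so a promoter without a match, or with only 1 type, may still hold them. Shown 5′ to 3′ on the gene's strand, with matches in capitals, are the most abundant member (Ccl6), the member with the smallest p-value by genotype (Ccl28), and 5 members with a match that span the range of levels. Ccl6 lies at chr11:83593088-83593337 on the reverse strand, Ccl28 at chr13:119623569-119623818 on the forward strand, Ccl9 at chr11:83578637-83578886 on the reverse strand and Ccl20 at chr1:83116516-83116765 on the forward strand. Cxcl1 lies at chr5:90890995-90891244 and Cxcl2 at chr5:90903649-90903898, both on the forward strand, and Cxcl10 at chr5:92348890-92349139 on the reverse strand.
Ccl6: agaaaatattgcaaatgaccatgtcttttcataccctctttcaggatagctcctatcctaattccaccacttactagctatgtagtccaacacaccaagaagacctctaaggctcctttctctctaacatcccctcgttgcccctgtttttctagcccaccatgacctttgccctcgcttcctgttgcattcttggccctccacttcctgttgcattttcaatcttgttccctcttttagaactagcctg
Ccl28: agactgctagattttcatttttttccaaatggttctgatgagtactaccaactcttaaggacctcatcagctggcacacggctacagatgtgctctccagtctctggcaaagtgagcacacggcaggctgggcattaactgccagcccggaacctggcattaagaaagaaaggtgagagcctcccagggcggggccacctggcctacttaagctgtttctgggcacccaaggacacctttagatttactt
Ccl9: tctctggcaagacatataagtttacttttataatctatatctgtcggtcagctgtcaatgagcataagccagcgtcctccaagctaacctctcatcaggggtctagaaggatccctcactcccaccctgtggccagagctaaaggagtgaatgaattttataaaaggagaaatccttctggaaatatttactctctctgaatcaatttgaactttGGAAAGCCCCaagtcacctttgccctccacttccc
Ccl20: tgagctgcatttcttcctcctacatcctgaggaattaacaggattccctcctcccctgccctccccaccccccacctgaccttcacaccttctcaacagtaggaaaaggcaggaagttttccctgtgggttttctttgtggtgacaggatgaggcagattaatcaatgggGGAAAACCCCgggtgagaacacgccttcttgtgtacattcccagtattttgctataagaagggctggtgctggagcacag
Cxcl1: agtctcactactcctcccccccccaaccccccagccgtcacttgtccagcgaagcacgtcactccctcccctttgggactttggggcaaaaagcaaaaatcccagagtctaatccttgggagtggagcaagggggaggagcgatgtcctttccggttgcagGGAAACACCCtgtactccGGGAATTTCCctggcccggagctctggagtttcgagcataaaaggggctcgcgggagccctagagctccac
Cxcl2: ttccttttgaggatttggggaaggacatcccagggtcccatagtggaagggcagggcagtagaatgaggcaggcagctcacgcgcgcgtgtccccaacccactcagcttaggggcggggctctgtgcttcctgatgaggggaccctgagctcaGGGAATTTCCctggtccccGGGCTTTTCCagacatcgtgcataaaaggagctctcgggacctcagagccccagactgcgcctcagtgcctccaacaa
Cxcl10: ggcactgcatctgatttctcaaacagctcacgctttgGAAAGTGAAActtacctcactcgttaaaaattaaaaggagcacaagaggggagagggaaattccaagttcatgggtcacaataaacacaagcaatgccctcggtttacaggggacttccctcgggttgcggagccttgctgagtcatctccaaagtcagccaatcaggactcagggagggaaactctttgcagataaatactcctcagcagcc
The matches are set beside the levels in this tissue for single members only, and no comparison over the 22 members was made. Ccl9, with 1 match of the NF-kappaB type, had a median of 11 RPKM over the 12 mice. Ccl20, also with 1 match, had 0.899 RPKM. Cxcl1 and Cxcl2, with 2 matches each, had 0.0794 and 0.0495 RPKM, and Cxcl3, with 1 match, had 0 RPKM. Of the members with these letters, only Ccl9 thus had a median of at least 1 RPKM. Ccl6, with no match, had 222 RPKM. Cxcl10 and Cxcl14, which both hold the interferon-type letters, differed as well, at 0.797 and 6.19 RPKM.

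Of the 32 members, 29 were measured, meaning at least 10 counts in at least 3 mice, and 15 were expressed, meaning a median of at least 1 RPKM. Among all 20311 genes that passed the same count filter, 66.1% were expressed, which compares with 15 of the 29 measured members. Cxcl2, Cxcl3 and Cxcl15 did not pass the filter. Among the 32 members Ccl6 was by far the most abundant, and its median of 222 RPKM was exceeded by 216 of the 38924 genes counted. Next came Ccl11 at 25.5, Ccl28 at 18.9, Cx3cl1 at 15.7, Pf4 at 12.1, Ccl9 at 11, Cxcl12 at 9.07, Ccl8 at 7.72 and Cxcl14 at 6.19 RPKM. The other 6 expressed members were Cxcl16 (4.98 RPKM), Cxcl13 (2.90), Ccl25 (2.62), Xcl1 (1.94), Ccl5 (1.91) and Ccl12 (1.85). Neighbours in this order overlapped widely between mice. Cx3cl1, for example, ranged from 7.31 to 26.4 RPKM and Pf4 from 6.56 to 21.9 RPKM. Ccl6 did not overlap with any other member in RPKM, since its lowest mouse had 100 RPKM and the highest mouse of the next members had 57.2 RPKM (Ccl28).

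**Figure D1:**
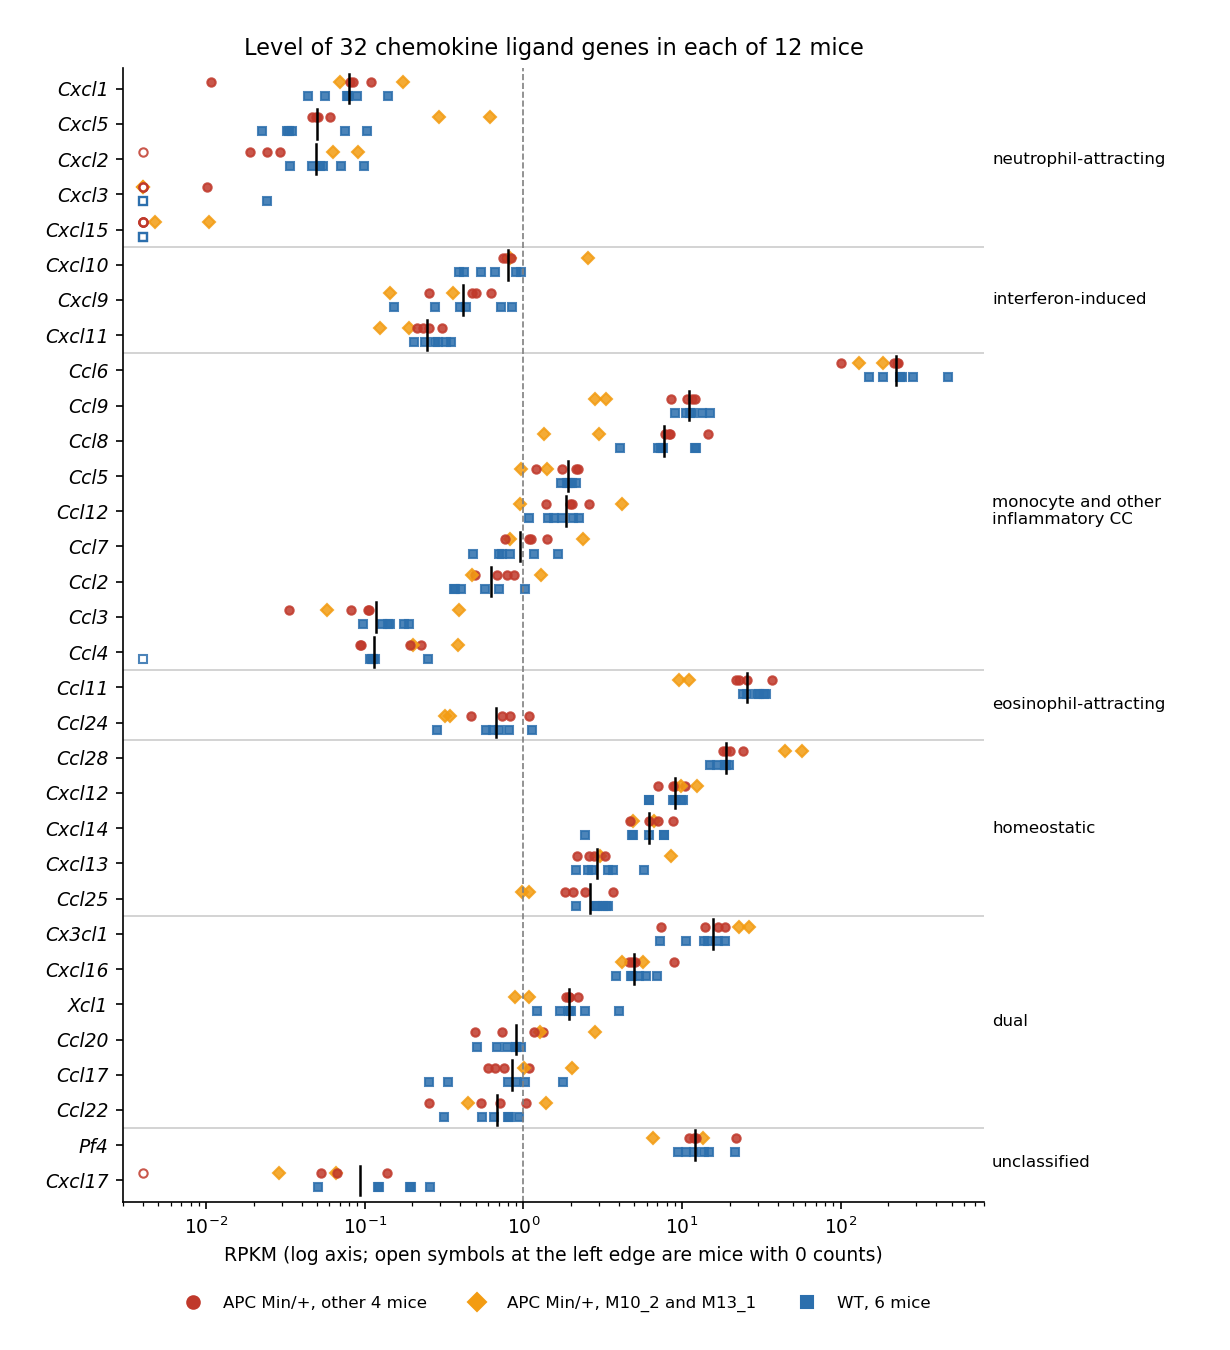
Level of each of the 32 chemokine ligand genes in every mouse, in RPKM on a log axis, grouped by class. Red circles are 4 APC Min/+ mice, orange diamonds are APC Min/+ mice M10_2 and M13_1, blue squares are 6 WT mice, black bars are medians over 12 mice and the dashed line marks 1 RPKM. Ccl6 lies above all other members, and the neutrophil-attracting class lies wholly below the line.

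By class, expression was lopsided. All 5 homeostatic members were expressed. Of the 9 monocyte-attracting and other inflammatory CC members, 5 were expressed, and so were 3 of 6 dual members, which have both roles, and 1 of 2 eosinophil-attracting members. Among the 3 interferon-induced and 5 neutrophil-attracting members, 0 reached a median of 1 RPKM. Over these 4 inflammatory classes together, leaving out the dual members, 6 of 19 members (31.6%) were expressed, namely Ccl6, Ccl11, Ccl9, Ccl8, Ccl5 and Ccl12. The classes are labels given by gene name, and a level within them does not show that a member was induced here. Ccl11, for example, also has a role in the healthy gut, given below.

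Ccl6 (ENSMUSG00000018927.3, chr11:83587882-83593087, reverse strand) encodes a CC chemokine of rodents that acts through Ccr1 and is made by macrophages and other myeloid cells. Its level was 180, 330, 414, 235, 389 and 407 CPM in APC Min/+ mice M8_2, M10_2, M18_2b, M13_1, M2_A and M20_1. In WT mice M17_2, M19_1, M16_1, M18_2a, M17_1 and M18_b it was 424, 334, 436, 513, 855 and 272 CPM, and the same order of mice is kept below. The lowest mouse was APC Min/+ and the highest WT, but the groups overlapped. The means were 326 ± 98.2 CPM (SD, n = 6) and 472 ± 205 CPM (SD, n = 6), a log2 fold change of -0.54 (SE 0.28, FDR = 0.908 in edgeR's quasi-likelihood test). Ccl6 made up 43.2 to 77.9% of the summed RPKM of the 32 members in single mice. With WT mouse M17_1 left out, the log2 fold change was -0.28.

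Ccl9 (ENSMUSG00000019122.8, chr11:83572919-83578636, reverse strand) is the neighbour of Ccl6, also signals through Ccr1 and is known from the epithelium over lymphoid follicles. It was at 8.51, 3.34, 10.8, 2.82, 12.1 and 11.6 RPKM in APC Min/+ mice and at 9.05, 10.6, 13.4, 11.3, 15.1 and 11.5 RPKM in WT mice. M10_2, M13_1 and, by a smaller margin, M8_2 lay below the WT range. The log2 fold change was -0.53 (SE 0.33, FDR = 0.908 in edgeR's quasi-likelihood test) with all mice and -0.14 (SE 0.15, FDR = 1) without the pair.

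Ccl8 and Ccl11 lie close together on chromosome 11. Ccl8 (ENSMUSG00000009185.2, chr11:82115185-82116799), a monocyte attractant made by resident macrophages, was at 4.26, 1.53, 4.21, 0.685, 7.42 and 4.01 CPM in APC Min/+ mice and at 2.09, 3.77, 6.14, 3.88, 3.59 and 6.25 CPM in WT mice. Ccl11 (ENSMUSG00000020676.2, chr11:82057823-82062955), or eotaxin, which keeps eosinophils in the healthy gut through Ccr3, was at 24.6, 12, 23.9, 10.3, 40 and 27.6 CPM in APC Min/+ mice and at 32, 26.3, 33, 35.4, 36.7 and 27.6 CPM in WT mice. For both genes, M13_1 was the lowest mouse, M10_2 the next and M2_A, also APC Min/+, the highest. For Ccl8 the log2 fold change was -0.22 (SE 0.45) with all mice and 0.21 (SE 0.29) without the pair, so its direction turned. For Ccl11 it was -0.47 (SE 0.27) and -0.13 (SE 0.16). The summed CPM of 4 adipocyte markers (Adipoq, Plin1, Cidec and Lep) was likewise lowest in M10_2 (3.46) and M13_1 (8.22). It was highest in M2_A (227), with 31.3 to 133 in the other 9 mice. Other marker lists shared part of this order. Sums for T cells, cytotoxic lymphocytes and platelets were also lowest in M10_2 (11.4, 3.20 and 1.92 CPM) and M13_1 (10.9, 3.39 and 1.97 CPM). The macrophage sum was lowest in M13_1 (103 CPM) and highest in M2_A (321 CPM), with 221 CPM in M10_2. The part of any of these lists in Ccl8 and Ccl11 was not tested.

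Pf4 (ENSMUSG00000029373.6, chr5:90772435-90773383), a product of platelet granules and of some macrophages, was at 6.49, 7.92, 6.98, 3.84, 12.8 and 7.18 CPM in APC Min/+ mice and at 6.97, 6.20, 12.6, 8.07, 8.73 and 5.54 CPM in WT mice. The 2 high mice, M2_A and M16_1, came from different genotypes. Its log2 fold change was -0.09 (SE 0.26) with all mice and 0.06 (SE 0.25) without the pair. Cx3cl1 (ENSMUSG00000031778.6, chr8:94772009-94782427), a membrane-bound chemokine read by macrophages through Cx3cr1, was at 62.8, 98, 69.3, 84.6, 27.5 and 51.6 CPM in APC Min/+ mice and at 62.4, 69.0, 51.3, 39.5, 27.1 and 54.1 CPM in WT mice. M10_2 and M13_1 were its highest mice, and the others of both genotypes were intermixed. Its log2 fold change was 0.38 (SE 0.28) with all mice and 0.06 (SE 0.28) without the pair.

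Among the homeostatic members, Ccl28 had the largest fold difference between the genotypes with all 12 mice (log2 fold change 0.77), whereas without M10_2 and M13_1 it had 0.18 and Cxcl13 the largest, at -0.32. Ccl28 (ENSMUSG00000074715.2, chr13:119623819-119654359) is made by colonic epithelium and attracts IgA-producing plasma cells through Ccr10. It was counted at 89.9, 167, 67.1, 214, 70.8 and 74.9 CPM in APC Min/+ mice and at 61.8, 70.2, 56.3, 69.3, 69.5 and 73.7 CPM in WT mice. The WT mice were close together (66.8 ± 6.42 CPM, SD, n = 6, a coefficient of variation of 9.62%), whereas M10_2 and M13_1 were well above all others. Without this pair, the other 4 APC Min/+ mice had 67.1 to 89.9 CPM, of which 3 lay above the WT median of 69.4 CPM and the groups overlapped. Ccl28 supplied 13.4% and 21.2% of the summed member RPKM in M10_2 and M13_1 and 3.04 to 10.4% in the other 10 mice.

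Cxcl12 (ENSMUSG00000061353.5, chr6:117168535-117181367), which retains Cxcr4-bearing cells and is made by stroma and vessels, varied least of the 8 most abundant members. It was at 74.1, 102, 85.5, 81.0, 71.3 and 58.1 CPM in APC Min/+ mice and at 80.1, 83.5, 74.2, 72.2, 51.0 and 50.4 CPM in WT mice, a coefficient of variation of 20.2% over 12 mice. Its log2 fold change was 0.20 (SE 0.16) and, without the pair, 0.07 (SE 0.17). Cxcl14, an epithelial and stromal chemokine, ranged from 4.69 to 8.81 RPKM in APC Min/+ mice and from 2.46 to 7.75 RPKM in WT mice. Ccl25, which guides Ccr9-bearing lymphocytes to the gut, ranged from 2.61 to 9.75 CPM in APC Min/+ mice and from 5.75 to 9.13 CPM in WT mice. M10_2 (2.61 CPM) and M13_1 (2.87 CPM) had the least Ccl25. Its log2 fold change was -0.57 (SE 0.28, FDR = 0.908 in edgeR's quasi-likelihood test) with all mice and -0.26 (SE 0.20, FDR = 1) without the pair. Ccl25 shares 204 bp of exon with Elavl1 on the opposite strand, and whether strand was used in counting is not given in the sources used here. Cxcl13, the B cell attractant of follicles, lay between 2.52 and 6.72 CPM in 11 mice and at 9.94 CPM in M13_1.

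**Figure D2:**
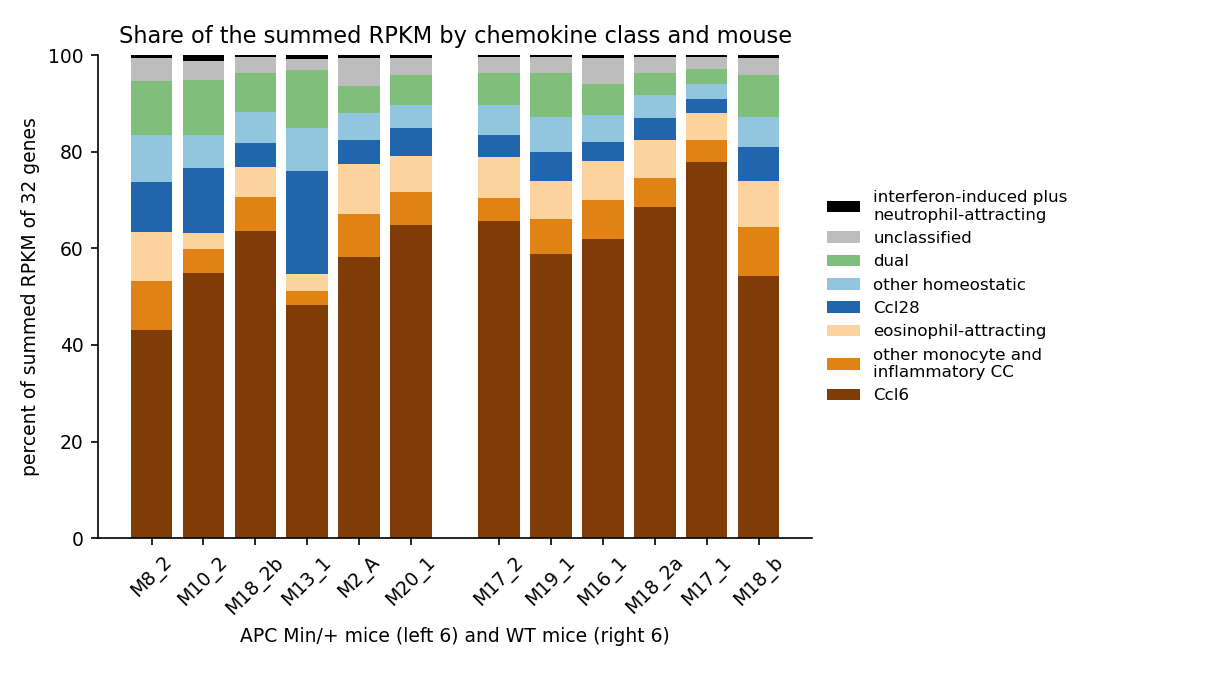
Share of each chemokine class in the summed RPKM of the 32 members, in percent, for each of 6 APC Min/+ mice (left) and 6 WT mice (right), with Ccl6 and Ccl28 drawn apart from their classes. Ccl6 takes 43.2 to 77.9% of every bar and Ccl28 is widest in M13_1 (21.2%).

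The neutrophil attractants, which act through Cxcr2, were at the edge of detection. Cxcl1 (ENSMUSG00000029380.10) had 108 counts over all 12 mice, and was at 0.0103, 0.167, 0.0802, 0.0663, 0.105 and 0.0766 CPM in APC Min/+ mice and at 0.0747, 0.135, 0.0417, 0.0535, 0.0737 and 0.0857 CPM in WT mice. Cxcl5 (ENSMUSG00000029371.6) was at 0.0821, 0.485, 0.1, 1.02, 0.0841 and 0.0766 CPM in APC Min/+ mice and at 0.0374, 0.0577, 0.125, 0.0535, 0.0553 and 0.171 CPM in WT mice. Cxcl5 had thus 2 high mice, M10_2 and M13_1, while all others stayed at or below 0.171 CPM. Cxcl2 had 69 counts in all and at most 0.104 CPM. Cxcl3 and Cxcl15 had 4 counts each over the 12 mice, and 10 of the mice had none. Their receptor gene Cxcr2 had 30 counts in all. The 5 neutrophil markers summed to 0.740 to 6.60 CPM, with no marker at 0 in all mice. Most of these counts came from Csf3r and Retnlg (1327 and 1867 in all). S100a8, S100a9 and Mmp8 had 84, 106 and 18 counts in all, and Mmp8 did not pass the count filter.

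Interferon-induced members, which attract T cells through Cxcr3, were low but countable. Cxcl10 (ENSMUSG00000034855.7, chr5:92346638-92348889) was at 1.19, 3.87, 1.23, 1.26, 1.13 and 1.28 CPM in APC Min/+ mice and at 0.598, 0.827, 1.46, 0.641, 1.37 and 1 CPM in WT mice. M10_2 was high for this gene, and the other 5 APC Min/+ mice were within the WT range. Cxcl9 did not follow, as it had 1.04 CPM in M10_2 and its highest mouse was WT M17_1 (2.46 CPM). Cxcl11, annotated as a polymorphic pseudogene, ranged from 0.475 to 1.33 CPM. Its counts do not show whether it gives a working T cell attractant in these mice. Exon sequence is shared with a gene on the opposite strand over 133 bp for Cxcl10 (Art3) and over 1582 bp for Cxcl11 (Gm2673).

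Among the remaining CC members, Ccl3 (ENSMUSG00000000982.5), a ligand of Ccr1, was at 0.0821, 0.303, 0.0802, 0.0442, 0.0630 and 0.0255 CPM in APC Min/+ mice and at 0.0747, 0.135, 0.146, 0.107, 0.111 and 0.0980 CPM in WT mice. Apart from M10_2, the APC Min/+ mice had at most 0.0821 CPM, near or below the lowest WT mouse. Ccl4, its neighbour, had 150 counts in all and also peaked in M10_2 (0.258 CPM). The monocyte attractants Ccl2, Ccl7 and Ccl12, which share Ccr2, each had their highest mouse in M10_2 too, at 1.47, 1.90 and 2.26 CPM, against at most 1.17, 1.32 and 1.40 CPM in the other 11 mice. Ccl5, a T cell product, ranged from 0.928 to 2.13 CPM, and Ccl24, a further eotaxin, from 0.368 to 1.46 CPM.

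The dual members Ccl17 and Ccl22 bind Ccr4. Ccl17 (ENSMUSG00000031780.1) was at 0.339, 1.04, 0.552, 0.519, 0.389 and 0.306 CPM in APC Min/+ mice and at 0.131, 0.461, 0.522, 0.410, 0.912 and 0.171 CPM in WT mice, with M10_2 and WT mouse M17_1 above the rest. Ccl22 ranged from 0.587 CPM to 3.20 CPM, the latter in M10_2. Ccl20, which draws Ccr6-bearing cells to follicles, lay between 0.702 and 1.89 CPM in 11 mice and at 4 CPM in M13_1. Cxcl16, a membrane-bound ligand of Cxcr6, ranged from 11.6 to 26.9 CPM and Xcl1, made by cytotoxic lymphocytes, from 0.464 to 2.11 CPM. Cxcl16 shares 552 bp of exon with Zmynd15 and Xcl1 shares 98 bp with Gm20743, both on the opposite strand. The mucosal chemokine Cxcl17 (ENSMUSG00000060188.3) had 95 counts in all. It was at 0, 0.0505, 0.0401, 0.0221, 0.105 and 0.0511 CPM in APC Min/+ mice and at 0.149, 0.0384, 0.0939, 0.196, 0.0921 and 0.147 CPM in WT mice. WT mice were mostly higher, though the groups overlapped.

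No chemokine ligand passed the test between genotypes. Of the 29 measured members, 0 combined an FDR under 0.05 with a 2-fold change by edgeR's quasi-likelihood test, as did 0 of all 20311 genes tested (0%). The lowest FDR of any member was 0.908. DESeq2 and edgeR's exact test also called 0 members, while they called 27 and 12 genes overall. At an unadjusted p under 0.05, Cxcl5 and Ccl28 were higher in APC Min/+ mice (2 of 29 members, where the share over all genes was 3.46%) and Cxcl17 was lower (1 of 29, against 1.81%). DESeq2 gave 5 members at that level, but no share over all genes is given for it, so this count is not read as a result about the members. Log2 fold changes were above 0 for 16 of the 29 members (48.4% of all genes) and below 0 for 13, with a median of 0.11 over the members and -0.01 over all genes. A change of at least 2-fold in either direction was seen for Cxcl5 and Cxcl17 (2 of 29, against 3.32% of all genes).

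Cxcl5 had a log2 fold change of 1.86 (SE 0.73, unadjusted p = 0.0236, FDR = 0.908 in edgeR's quasi-likelihood test). Ccl28 had one of 0.77 (SE 0.28, unadjusted p = 0.0149, FDR = 0.908), from 114 ± 61.6 CPM (SD, n = 6 APC Min/+ mice) against 66.8 ± 6.42 CPM (SD, n = 6 WT mice). For Cxcl17 it was -1.45 (SE 0.62, unadjusted p = 0.0371, FDR = 0.908). Cxcl10 and Ccl20, whose highest mice belonged to the pair, had log2 fold changes of 0.76 (SE 0.35) and 0.72 (SE 0.35), both with an FDR of 0.908. In no measured member were the 2 genotypes free of overlap, which was the case for 0.118% of all genes.

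**Figure D3:**
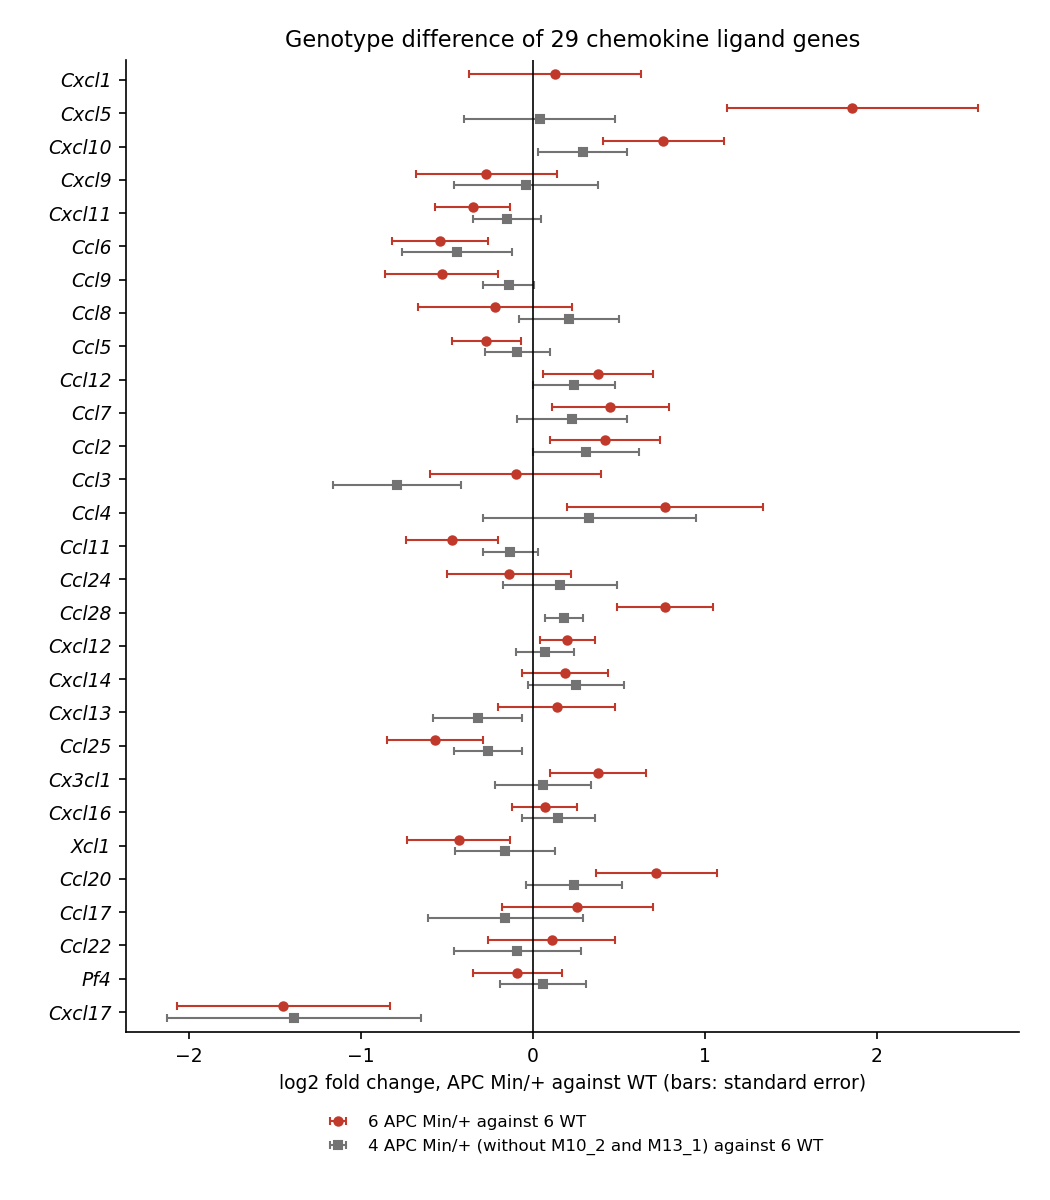
Log2 fold change of the 29 measured members between APC Min/+ and WT mice, with bars of 1 standard error. Red circles use all 12 mice and grey squares leave out M10_2 and M13_1. Without this pair Cxcl5 moves from 1.86 to 0.04 and Ccl28 from 0.77 to 0.18, while Cxcl17 stays near -1.4 with wide bars.

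The comparison was repeated without M10_2 and M13_1. Of 28 members tested, 0 were called (0% of 19978 genes) and 0 had an unadjusted p under 0.05 in edgeR's quasi-likelihood test, where 0.531% of all genes were higher and 1.06% lower at that level. Cxcl5 then had a log2 fold change of 0.04 (SE 0.44) and Ccl28 of 0.18 (SE 0.11). Cxcl17 stayed at -1.39 (SE 0.74), the 1 member of 28 that differed by at least 2-fold (1.28% of all genes). Ccl3 was next at -0.79 (SE 0.37, unadjusted p = 0.0536, FDR = 1). Fold changes were above 0 for 15 members and below 0 for 13 (above 0 for 48.5% of all genes), and their median was 0.05. Groups without overlap were found for 0 of the measured members and 0.256% of all genes. Of the abundant members, Ccl6 kept a log2 fold change of -0.44 (SE 0.32) and Cxcl12 one of 0.07 (SE 0.17).

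M10_2 and M13_1 lay at the top of the range for some members and at the bottom for others. They were the 2 highest of 12 mice for Cxcl5, Ccl28 and Cx3cl1 (3 of 29 members, against 11.8% of all genes). They were the 2 lowest for Cxcl11, Ccl8, Ccl9, Ccl11, Ccl25 and Xcl1 (6 of 29, against 12.2% of all genes). The pair also differed within itself. M10_2 was the highest mouse for 11 members (Cxcl1, Cxcl10, Ccl2, Ccl3, Ccl4, Ccl7, Ccl12, Cxcl12, Ccl17, Ccl22 and Cx3cl1), against 14% of all genes. It was the lowest for Ccl25 alone, against 11.3%. M13_1 was the highest for Cxcl5, Cxcl13, Ccl28 and Ccl20 (11.2% of all genes) and the lowest for 9 members (Cxcl9, Cxcl11, Ccl5, Ccl8, Ccl9, Ccl12, Ccl11, Xcl1 and Pf4), against 13.4% of all genes. These counts describe 2 mice that were singled out from the data, and no test was made between them and the rest.

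**Figure D4:**
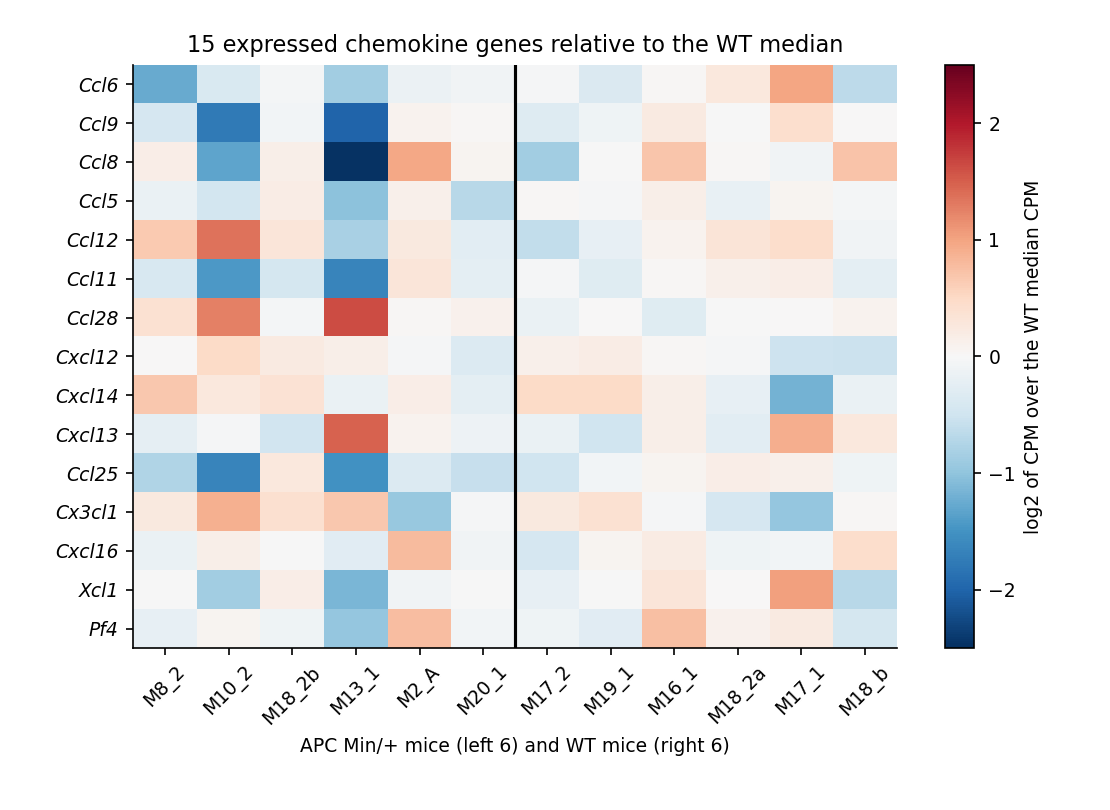
The 15 expressed members in each mouse, as the log2 of CPM over the WT median CPM, with 6 APC Min/+ mice left of the line and 6 WT mice right of it (red higher, blue lower). M10_2 and M13_1 share low Ccl9, Ccl8, Ccl11 and Ccl25 and high Ccl28, and differ in Ccl12 and Cxcl13.

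Several members moved with marker genes of cell types. For each of 18 pairs of a member and a marker list, of cells known to make it or to gather where it is made, the log2 levels were correlated over the 12 mice. In 10 of the 18 pairs, the adjusted p was under 0.05 for Pearson's r (permutation test, 100000 resamples, two-sided, Benjamini-Hochberg over the 18 pairs), and in 2 for Spearman's rho. In the 10 mice other than M10_2 and M13_1, 4 pairs were under that value for r and 0 for rho (lowest adjusted permutation p = 0.272, with 1 pair at an unadjusted p under 0.05). Without the 2 mice farthest from the median of each marker sum, 0 were under it for r (lowest adjusted permutation p = 0.052), with 7 at an unadjusted p under 0.05. Both values of a point come from 1 library, so depth and composition are shared.

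Cxcl13 rose with the B cell and follicle list (Ms4a1, Cd79a, Cd79b, Cr2, Fcer2a, Pax5 and Blk). Pearson's r was 0.89 (permutation p = 0.00023, adjusted 0.00156) and Spearman's rho 0.80 (permutation p = 0.00304, adjusted 0.0328). That r was 0.75 both without the 2 farthest mice, M13_1 and M8_2 (adjusted permutation p = 0.0551), and in the 10 mice (adjusted permutation p = 0.0462). The summed markers were at 49.4 CPM in M13_1 and at 1.44 to 10.6 CPM in the other 11 mice. Ccl20 had r = 0.72 with the same list (permutation p = 0.016, adjusted 0.0289) and rho = 0.40 (permutation p = 0.2, adjusted 0.257). Its r was 0.63 without M13_1 and M8_2 (adjusted permutation p = 0.114) and 0.22 in the 10 mice (adjusted permutation p = 0.566), so that this relation rested on M10_2 and M13_1. The receptor genes of these chemokines, Cxcr5 and Ccr6, were picked out after their values were seen. They were at 3.16 and 2 CPM in M13_1 and at most at 0.939 and 0.540 CPM elsewhere.

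**Figure D5:**
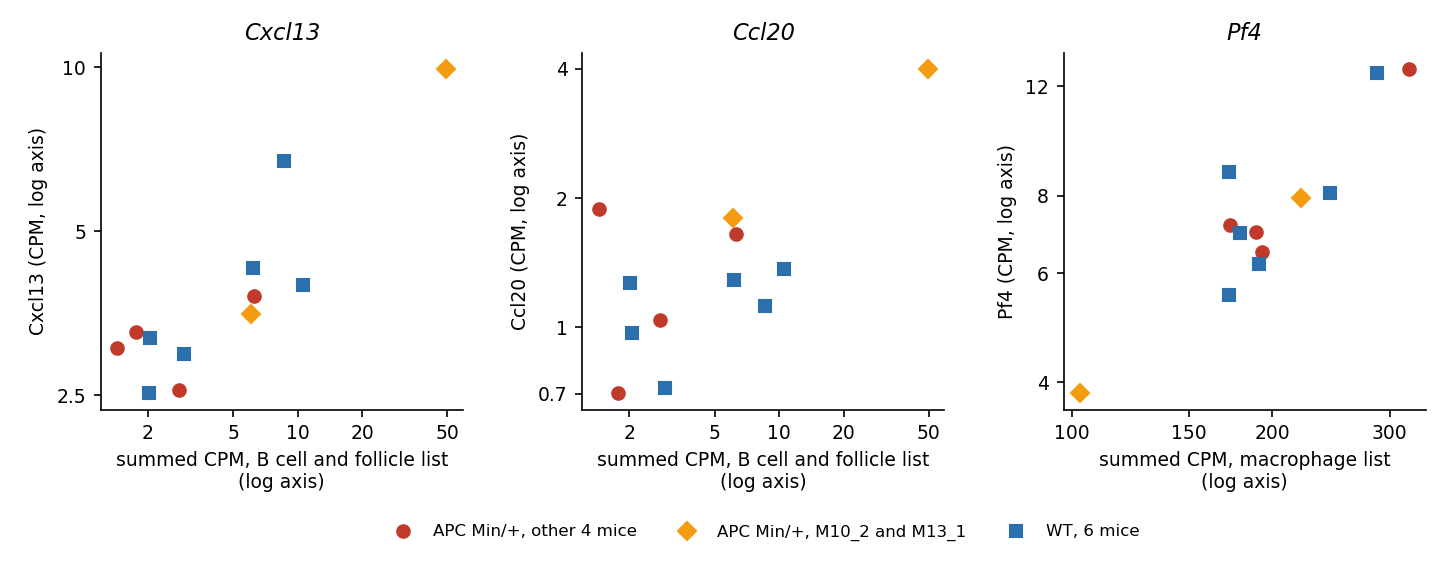
Cxcl13 and Ccl20 against the summed CPM of 7 B cell and follicle markers, and Pf4 against the summed CPM of 8 macrophage markers, 1 point per mouse, all axes logarithmic. Red circles are 4 APC Min/+ mice, orange diamonds M10_2 and M13_1, and blue squares 6 WT mice. The B cell sum of 49.4 CPM in M13_1 stands apart, and in the 10 mice other than M10_2 and M13_1 r is 0.75 for Cxcl13 and 0.22 for Ccl20.

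Pf4 rose with the macrophage list (Csf1r, Adgre1, Cd68, C1qa, C1qb, C1qc, Mrc1 and Cd163), with r = 0.91 (permutation p = 0.00024, adjusted 0.00156) and rho = 0.62 (permutation p = 0.0347, adjusted 0.078). That r was 0.75 without M13_1 and M2_A (adjusted permutation p = 0.0595) and 0.85 in the 10 mice (adjusted permutation p = 0.0462). With 5 platelet genes its r was 0.50 (permutation p = 0.0977, adjusted 0.126) and its rho 0.55 (adjusted permutation p = 0.139). Of these genes, Gp9 and Gp1ba did not pass the count filter (24 and 8 counts in all) and Ppbp had 320 counts. Most counts came from Itga2b and Gp1bb (2758 and 2034), so the lower r does not show that Pf4 was unrelated to platelets.

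Xcl1 rose with cytotoxic lymphocyte markers (Nkg7, Gzma, Gzmb, Klrd1 and Ncr1), with r = 0.88 (permutation p = 0.00026, adjusted 0.00156) and rho = 0.73 (permutation p = 0.0101, adjusted 0.0547). Its r was 0.78 both without M10_2 and M17_1 and in the 10 mice (adjusted permutation p = 0.0551 and 0.0462). Ccl5 had r = 0.80 with the T cell list (permutation p = 0.00153, adjusted 0.00551) and rho = 0.68 (permutation p = 0.0182, adjusted 0.0547). Leaving out M10_2 and M13_1, which were also its 2 farthest mice, gave r = 0.59 (adjusted permutation p = 0.169), so that this relation rested in part on them. With cytotoxic markers, Ccl5 had r = 0.76 (permutation p = 0.00438, adjusted 0.0113) and rho = 0.69 (permutation p = 0.0155, adjusted 0.0547), with r = 0.83 without M10_2 and M17_1 (adjusted permutation p = 0.052) and 0.54 in the 10 mice (adjusted permutation p = 0.222). Both chemokines are products of activated lymphocytes.

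Cxcl12 rose with endothelial markers (Pecam1, Cdh5, Kdr, Tek and Emcn), with r = 0.85 (permutation p = 0.00206, adjusted 0.00618) but rho = 0.45 (permutation p = 0.148, adjusted 0.205). Its r was 0.74 without M17_1 and M20_1 (adjusted permutation p = 0.113) and 0.85 in the 10 mice (adjusted permutation p = 0.0462). With fibroblast markers r was 0.53 (permutation p = 0.0731, adjusted 0.101) and rho 0.46 (adjusted permutation p = 0.205). Ccl22, a product of dendritic cells, had r = 0.75 with their markers (permutation p = 0.00556, adjusted 0.0125) and rho = 0.69 (permutation p = 0.0171, adjusted 0.0547), and r = 0.65 without M8_2 and M20_1 (adjusted permutation p = 0.103) and 0.72 in the 10 mice (adjusted permutation p = 0.0701).

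Other pairs went another way or fell short. Ccl9 fell as the markers of follicle-associated epithelium (Gp2, Spib, Sox8 and Tnfaip2) rose, with r = -0.82 (permutation p = 0.0004, adjusted 0.0018) and rho = -0.78 (permutation p = 0.00364, adjusted 0.0328). That r was -0.73 without M10_2 and M17_1 (adjusted permutation p = 0.0595) and -0.63 in the 10 mice (adjusted permutation p = 0.162). Most counts of this list came from Spib and Tnfaip2 (6488 and 9592 in all), against 627 for Sox8 and 314 for Gp2. The relation thus mostly concerns Spib and Tnfaip2 and cannot be read as one to follicle-associated epithelium as a whole. For Ccl20 and the same list, r was 0.62 (permutation p = 0.032, adjusted 0.0524) and rho 0.49 (adjusted permutation p = 0.197), with r = 0.73 without M10_2 and M17_1 (adjusted permutation p = 0.0595) and 0.30 in the 10 mice. Ccl8 had r = 0.69 with macrophage markers (permutation p = 0.0147, adjusted 0.0289) and rho = 0.45 (adjusted permutation p = 0.205), but r = 0.11 without M13_1 and M2_A, on which the relation rested, and 0.60 in the 10 mice.

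Ccl6, the most abundant member, had r = 0.28 with the macrophage list (permutation p = 0.371, adjusted 0.417) and rho = 0.14 (adjusted permutation p = 0.708). Ccl11 had r = -0.58 with fibroblast markers (permutation p = 0.0477, adjusted 0.0715) and rho = -0.63 (adjusted permutation p = 0.078). The epithelial members Cxcl14, Ccl25 and Ccl28 had r of 0.33, -0.10 and 0.03 with the epithelial list (permutation p = 0.294, 0.748 and 0.916) and rho of 0.11, -0.31 and 0.36. Levels of Ccl6, Ccl11 and these 3 members thus showed no relation to these lists that passed the adjusted threshold.

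The receptors and further ligands of the system were followed in the same way. From a list of 22 receptor genes and 9 other ligands, 30 were matched and 25 were measured (20 receptors and 5 ligands). Of these, 0 were called by genotype in edgeR's quasi-likelihood test. There, 0 had an unadjusted p under 0.05, where 3.46% of all genes were higher and 1.81% lower in APC Min/+ mice. DESeq2 gave 1 at that level and the exact test 1, for which no share over all genes is given. Log2 fold changes ranged from -0.78 to 1.27 (Ccr8, 101 counts in all) with a median of -0.03, and 11 were above 0. Ccr8 reached 10 counts only in APC Min/+ mice M8_2, M10_2 and M13_1 (21, 28 and 14 counts), and WT mice had 0 to 6 counts. It thus passed the count filter only through the group where it was high, so its fold change is not evidence of a difference. Without M10_2 and M13_1, 24 receptors and other ligands were tested by edgeR's quasi-likelihood test, again with 0 called and 0 at that level, and the median was -0.13. The 4 most abundant were Ccl21a (44.6 RPKM), which guides dendritic cells and T cells into lymph vessels, and the scavenging receptors Ackr4 (8.62 RPKM), Ackr3 (5.42 RPKM) and Ackr1 (2.86 RPKM). Their log2 fold changes were -0.03 (SE 0.13), -0.19 (SE 0.22), 0.03 (SE 0.14) and 0.34 (SE 0.17), with an FDR of 0.972, 0.911, 0.977 and 0.908. Ccl21a has near-identical copies, of which Ccl21b had 0 counts in all mice, so how reads were shared between them is uncertain. Ackr4 was lowest in M13_1 (8.99 CPM) and M10_2 (9.94 CPM), against 14.6 to 23.2 CPM in the other mice.

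Neighbouring genes differed widely in level. In the stretch chr5:90759360-90905938, which holds 6 members, Pf4 had a median of 12.1 RPKM and the 5 neutrophil attractants had 0 to 0.0794 RPKM. In chr11:83525778-83664683, Ccl6 and Ccl9 had 222 and 11 RPKM, Ccl5 had 1.91 RPKM, and Ccl3 and Ccl4 had 0.118 and 0.115 RPKM. In chr11:82035571-82116799, Ccl11 and Ccl8 had 25.5 and 7.72 RPKM and Ccl12, Ccl7 and Ccl2 had 1.85, 0.959 and 0.630 RPKM. In chr8:94745590-94812036, Cx3cl1 had 15.7 RPKM between Ccl22 at 0.683 and Ccl17 at 0.849 RPKM. The 3 interferon-induced members in chr5:92321347-92365485 lay closer together, with Cxcl10 at 0.797, Cxcl9 at 0.418 and Cxcl11 at 0.246 RPKM.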

How the data were processed

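RNA of tissue labelled proximal colonic mucosa from 12 mice was sequenced in paired ends, 1 library per mouse. The authors deposited, for each mouse, a table of raw counts per gene with gene lengths, made with STAR 2.3.0 and featureCounts on GRCm38.p2 per the labels' processing notes. The annotation release, strand setting and treatment of reads with several matches are not given in the sources used here. Ensembl identifiers were paired with symbols through GENCODE M21 (37607 of 38924 genes). A gene needed 10 counts or more in 3 mice or more to enter edgeR 4.0.16 (quasi-likelihood test, TMM, Benjamini-Hochberg over all genes, genotype as the only term). A call needed an FDR under 0.05 and a 2-fold change. The SE is the log2 fold change divided by the square root of F. The fit was tested on simulated data. Correlations used log2(CPM + 0.5). CPM and RPKM are scaled by TMM. Mice were grouped by the labels. The shipment of each mouse is not named, so it could not be a term. Alternatives were size factors, no count filter, DESeq2 1.42.0, the exact test, the suffix of the mouse name as covariate, and left-out mice.

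The members and all gene lists were chosen with earlier results of these data known. All 32 members are named. Values of every mouse are printed for the 8 with the highest median RPKM, those with an unadjusted p under 0.05 and the 6 measured ones with the largest ratio of highest to lowest mouse (defined only where no mouse was at 0). Of receptors and other ligands, the 4 with the highest median RPKM are named. Counting error alone sets the limit of 3 counts. A receptor gene and a B cell marker of these lists are not reported here and were left out of all counts and sums.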

Additional observations from a re-analysis of the deposited data

Results flagged for a closer look

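On the log2(CPM + 0.5) scale, in a group of 6 mice, a mouse was singled out when its gap to the nearest other took up more of the group's range than Dixon's 95% criterion allows. Chance alone does so in about 1 in 20 groups, and 3 of 58 groups (29 members in each genotype) were singled out. Cxcl10 was at 3.87 CPM in APC Min/+ mouse M10_2, against 1.13 to 1.28 CPM in the other APC Min/+ mice. Ccl3 was at 0.303 CPM in the same mouse, against 0.0255 to 0.0821 CPM. Cxcl13 was at 9.94 CPM in APC Min/+ mouse M13_1, against 2.56 to 3.80 CPM in the others. No mouse of the WT groups was singled out on either scale. On linear CPM, a scale added after seeing the data, 6 groups were singled out, the others being Ccl17 in M10_2 (1.04 CPM, against 0.306 to 0.552 CPM), Ccl20 in M13_1 (4 CPM, against 0.702 to 1.89 CPM) and Cxcl16 in M2_A (26.9 CPM). The cause was not tested.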

How the results depend on the processing

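No paired analysis was possible because the labels do not say what the numbers and letters shared between mouse names mean, so that no mouse could be linked to one of the other genotype. The count of 0 members called by genotype was the same under each alternative and with each mouse left out. Members with an unadjusted p under 0.05 numbered 3 with all mice, 5 in DESeq2, 0 without M10_2 and M13_1, and 2 to 6 with 1 mouse left out. Receptors and other ligands at that level numbered 1 in DESeq2, 1 in the exact test and 0 to 1 with 1 mouse left out. In edgeR's quasi-likelihood test, 1071 of all 20311 genes were at that level with all mice, and 317 of 19978 without M10_2 and M13_1. No share over all genes is given for the other fits, so these counts are not read as a result about the members. Over all genes, DESeq2 called 27 and the exact test 12. Relations to marker lists numbered 10 over 12 mice, 4 in the 10 mice (0 by rank) and 0 without the 2 farthest mice. The median of all genes stayed at -0.01 with and without M10_2 and M13_1. Other size factors, no filter, DESeq2, the exact test and the name suffix turned the direction of 0 of the 29 members and 0 of the 25 receptors and other ligands. Leaving out M10_2 and M13_1 turned the log2 fold change of 6 of 28 members, Ccl8 (0.21), Ccl24 (0.16), Cxcl13 (-0.32), Ccl17 (-0.16), Ccl22 (-0.09) and Pf4 (0.06), and of 10 of 24 receptors and other ligands, among them those with values in the report, Ccr6 (-0.59), Cxcr5 (-0.34) and Ackr4 (0.08). With 1 mouse left out, 7 of 29 members and 14 of 25 receptors and other ligands turned in 1 fit or more. The ranges of those members, and of the receptors and other ligands with values in the report, were -0.88 to 0.08 for Ccl3, -0.35 to 0.06 for Ccl24, -0.28 to 0.36 for Cxcl13, -0.07 to 0.61 for Ccl17, -0.18 to 0.29 for Ccl22, -0.10 to 0.17 for Cxcl16, -0.29 to 0.10 for Pf4, -0.13 to 0.09 for Ccl21a, -0.13 to 1.12 for Ccr6, -0.38 to 0.77 for Cxcr5 and -0.08 to 0.09 for Ackr3. Ccl28 kept an unadjusted p under 0.05 in each of these 12 fits (log2 fold change 0.49 to 0.89), Cxcl5 in 11 (1.03 without M13_1, to 2.19) and Cxcl17 in 7 (-1.86 to -1.12). Members with few counts (Cxcl1, Cxcl2, Cxcl3, Cxcl5, Cxcl15, Ccl3, Ccl4 and Cxcl17) are limited by depth. The causes were not tested.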
